A study of Macaca fascicularis with 8 samples.

Results

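The narrow regions open in every organ were the stretches of the cynomolgus monkey genome in which all 7 organs had a peak of accessible chromatin and no single peak was wide. They were found by merging the peak lists of colon, heart, kidney, male liver, lung, spleen and uterus wherever peaks overlapped by at least 1 bp. A region was kept when each of the 7 lists had a peak in it and its widest single peak was under 5000 bp. This gave 18360 regions out of 245443 merged regions, or 7.48%. A further 1844 regions also had a peak in all 7 lists but contained a peak of 5000 bp or more, and these wide shared regions serve as a comparison. The regions were thus chosen by the presence and width of peaks in these 7 lists, so neither is a finding here, and levels in the 7 libraries are given as descriptions.

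Chromatin accessibility was measured in single cells (scATAC-seq) in 8 libraries from 2 healthy 4-year-old cynomolgus monkeys, both in the condition labelled normal. Colon, heart, lung, uterus and a female liver library came from the female, and kidney, spleen and a male liver library from the male. Each organ other than liver had 1 library and each sex 1 animal, so organ, animal and library cannot be told apart and no difference between organs was tested. The female liver library was not used to choose the regions and is the only library on which they could be checked.

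In this assay the transposase Tn5 inserts adapters where DNA is not wrapped around nucleosomes, and the 2 ends of each sequenced fragment mark such cuts. Regions that are accessible in most tissues are commonly promoters of genes needed by all cells and sites of the insulator protein CTCF, whereas enhancers are usually accessible in fewer cell types. The sources used here name no genome build for the peak coordinates, so no gene, start site, motif or sequence was assigned to a region from its position.

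Colon had the most counts in its own peaks over all barcodes, 110748462, and the female liver the fewest, 2627231. After barcodes with fewer than 1000 counts were removed, between 728 barcodes (female liver) and 20019 barcodes (spleen) remained, and these are called cells here. Among the 28 pairs of libraries, lung and spleen shared the most barcodes (379). The highest share of the smaller library was 3.15%, for spleen and uterus (182 barcodes), and the liver pair shared 9. Peaks without a count in any barcode, kept or not, numbered 134 to 726 in the 7 libraries and 36058 of 165942 in the female liver. Entries with an even count made up 94.6% to 95.5% in the 3 male libraries and 75.7% to 89.8% in the 5 female ones, which is a difference in the deposited values that runs with the animal.

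Most regions were simple in structure. In 14323 of them (78.0%) each list contributed exactly 1 peak. The merged width was 1868 bp at the median, with quartiles of 1235 and 2757 bp and a range of 369 to 10558 bp. The bases covered by peaks in all 7 lists together had a median length of 652 bp, which was 40.3% of the region at the median. In 436 regions (2.37%) no base was covered in all 7 lists, since a chain of overlapping peaks joined the lists. The widest single peak was under 1000 bp in 3253 regions, 1000 to 2000 bp in 7108 and 4000 to 5000 bp in 1111.

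The limit of 5000 bp fell within a continuous range. The members just inside it, chr1:83884681-83889747 and chr9:93772482-93777480, had a widest peak of 4999 bp. The regions just outside, chr15:14514633-14519989 and chr5:98963239-98968247, reached 5008 and 5009 bp. The levels of these 4 regions varied on both sides of the limit. At chr1:83884681-83889747 it lay between 50.7 CPM (counts of cut ends per 1000000 counts in all peaks of a library) in male liver and 161 in spleen, and at chr9:93772482-93777480 between 2.65 in heart and 78.6 in colon. Outside the limit, chr15:14514633-14519989 ran from 22.0 CPM in kidney to 111 in spleen and chr5:98963239-98968247 from 77.6 in male liver to 140 in spleen.

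A peak in every list did not always mean a measurable signal in every organ. The peak of at least 1 list was shorter than 200 bp in 1606 regions and shorter than 50 bp in 389. Uterus, which had the shortest list with 37159 peaks, accounted for 1044 of the cases under 200 bp, against 59 to 151 in each of the other 6 libraries. In 57 regions a library had no count at all, 32 of them in uterus, and the peak there was at most 19 bp long (median 3 bp). The 16754 regions (91.3%) with at least 200 bp of peak in each list are therefore given separately where the short peaks change a value. At the other end, 8730 regions (47.5%) had at least 500 counts in each of the 7 libraries.

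The narrow shared regions took a large part of the signal. They held 37.7% of all counts in male liver, 42.7% in kidney, 48.3% in colon, 51.2% in spleen, 53.8% in lung, 54.6% in heart and 65.7% in uterus. In the female liver, the library with the fewest counts, the share was 46.2% (exact binomial interval at 95%, 46.1 to 46.3, covering counting error only, as do all intervals here). This interval took both ends of a fragment as independent counts, so it is narrower than one on fragments would be. The order followed the share of the peak length that the regions made up, which was lowest in male liver (27.0%) among the 7 libraries and highest in uterus (60.3%). In each of the 8 libraries the share of counts was above the share of peak length.

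**Figure D1:**
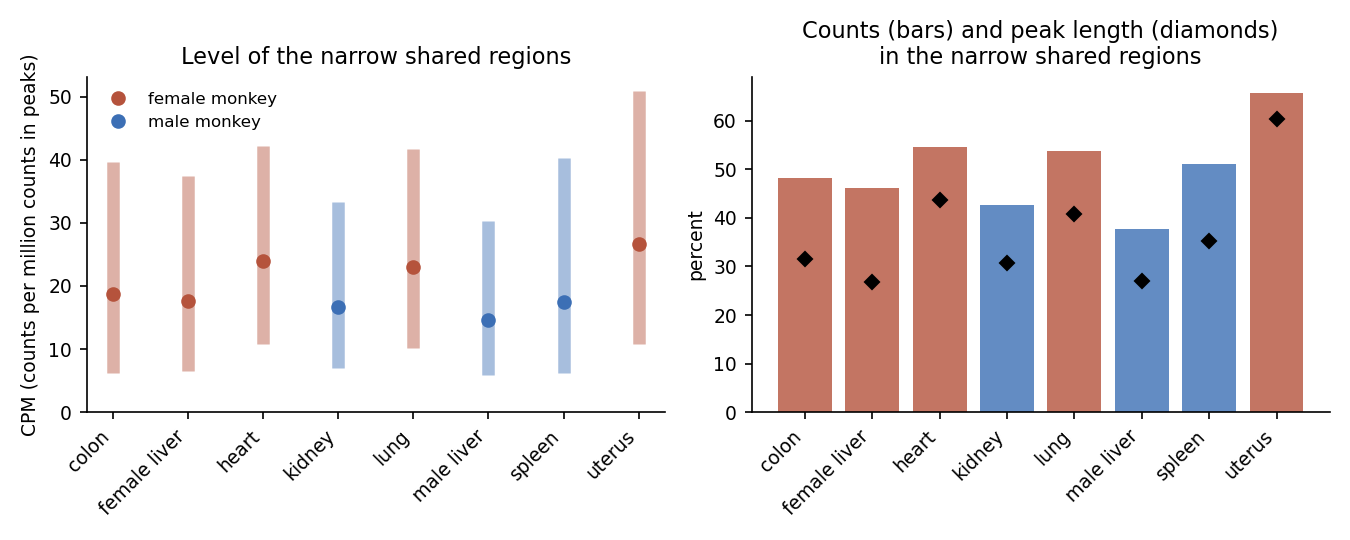
Left, level of the 18360 narrow shared regions in each library in CPM (points, medians; bars, quartiles; red, female monkey; blue, male monkey). Right, percent of a library's counts (bars) and of its peak length (diamonds) that fell in these regions. Medians lay between 14.7 in male liver and 26.7 in uterus, and uterus stood highest in both panels, but not when scaled to the regions with a peak in all 7 lists.

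The median region had 14.7 CPM in male liver, 16.7 in kidney, 17.5 in spleen, 18.7 in colon, 23.0 in lung, 24.0 in heart and 26.7 in uterus, and 17.7 in the female liver. The quartiles of all 8 libraries overlapped widely. Behind these values stood a median of 683 counts per region in kidney to 2359 in lung, but only 35 in the female liver. Part of the order depends on the denominator. When the counts were scaled to the regions with a peak in all 7 lists instead, the medians lay between 26.6 in spleen and 34.7 in heart per 1000000 counts there, with 27.9 in male liver, 33.3 in lung and 31.5 in uterus, so both ends of the order changed.

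Single cells showed a count in a given region only sparsely. In the median region 2.55% of cells in spleen and 10.8% in heart had at least 1 count. Depth per cell differed between these libraries, with 2276 counts in the median cell in spleen and 7078 in heart, but colon, with the deepest cells (7446), had 7.56%. After each cell was thinned to 1000 counts, the median region was seen in 1.36% of cells in male liver and spleen, 1.42% in kidney, 1.70% in colon, 2.02% in lung, 2.12% in heart and 2.29% in uterus. The highest thinned share of any region was 23.5%, in heart. Cut ends were drawn singly rather than in pairs, so the thinned shares are higher than if fragments had been drawn. The share of even counts differed between libraries, and its effect on their order was not tested. A region open in all 7 organs was thus seen in few cells of each at this depth.

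The 5 regions with the highest value of their lowest library were accessible in all organs without exception. At chr11:52480477-52484143 the level was 125 CPM in male liver, 144 in heart, 158 in colon, 174 in kidney, 182 in lung, 206 in spleen and 240 in uterus. Between 24.1% of cells in spleen and 49.5% in uterus had a count there. The female liver had 135 CPM (exact Poisson interval 113 to 160, on counts divided by 2 because most come in pairs). At chr5:100448410-100453021 the level lay between 125 CPM in male liver and 235 in spleen, and at chr4:128352662-128356084 between 118 in male liver and 254 in spleen. The regions chr7:86489461-86493909 and chr17:78922030-78925240 had their lowest values in kidney (117 CPM) and male liver (114 CPM), and their highest in uterus (200 and 215 CPM). The 5 regions were 3211 to 4612 bp long, all above the upper quartile of width.

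Organs differed at most regions by a moderate factor. The level of the highest library divided by that of the lowest was 3.27 at the median region, with quartiles of 2.14 and 7.66. It was under 2 in 20.3% of the regions and over 10 in 19.5%. Among wide shared regions the median was 4.30. Ratios were larger where a peak was short, as the median was 2.99 with at least 200 bp of peak in each list and 23.5 among the 1606 regions with a shorter peak. Expressed per 1000 bp of peak, the median ratio was 3.18 and only 2.12% of the regions had a ratio over 10. For the wide shared regions these values were 3.57 and 0.976%. The covered length moved with the level, and which of them sets the ratio was not tested.

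The spread between organs was smaller at regions with a higher level. The regions were divided into 5 groups of near equal size by the median of the 7 libraries, from a median of 5.07 CPM in the lowest group to 58.3 in the highest. The median ratio of the highest to the lowest library was 6.67, 5.91, 3.99, 2.37 and 2.09 in these groups. With at least 200 bp of peak in each list it was 5.07, 5.25, 3.89, 2.37 and 2.09, and per 1000 bp of peak in those regions 4.34, 3.90, 3.39, 2.70 and 2.54. The highest group was thus the most even on each of the 3 scales, and the contrast between groups was smallest per length. Counting error is larger at low levels, and its part in these ratios was not tested.

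**Figure D2:**
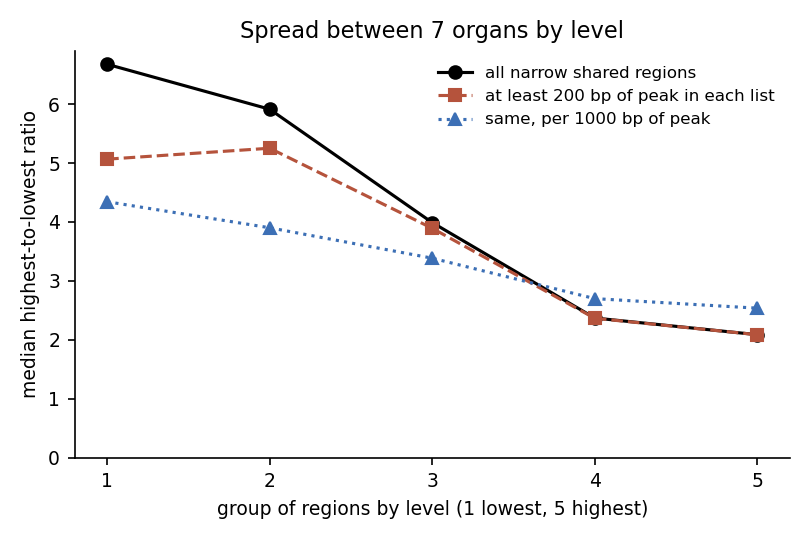
Median ratio of the highest to the lowest of 7 libraries (vertical axis) in 5 groups of the narrow shared regions ordered by level (horizontal axis). Black circles, all regions; red squares, regions with at least 200 bp of peak in each list; blue triangles, the latter per 1000 bp of peak. The ratio for all regions went from 6.67 in the lowest group to 2.09 in the highest.

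Level also went with width. In 4 groups of near equal size by merged width the median level was 6.66, 18.5, 29.4 and 37.5 CPM from the shortest to the longest, and per 1000 bp of peak 11.1, 16.8, 18.3 and 16.3. The widest group therefore had the highest level, but not the highest density of cuts.

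The most even regions among those with at least 500 counts in each library differed by less than 1.2-fold between organs in CPM. Per 1000 bp of peak, their ratios were 1.74 to 2.92, so their evenness holds for the summed level only. At chr5:17610384-17613462 the level was 88.1 CPM in lung, 91.8 in male liver, 92.1 in spleen, 93.6 in kidney, 94.96 in uterus, 97.3 in colon and 98.9 in heart, a ratio of 1.12. The female liver, which played no part in the choice, had 100.1 CPM there (81.3 to 122). The level was thus alike in 8 libraries although the peak was 1713 bp long in uterus and 3079 bp in colon. At chr7:155481548-155484052 the 7 libraries lay between 42.6 and 49.0 CPM and the female liver had 42.5 (30.6 to 57.4). At chr15:77023146-77026798 they lay between 54.2 and 63.1 CPM, with 49.0 (36.2 to 64.9) in the female liver. The region chr4:4606439-4608720 had 47.7 to 56.2 CPM in the 7 libraries and 65.7 (50.7 to 83.8) in the female liver. On the X chromosome, chrX:78506841-78507946 had 18.1 to 21.5 CPM, with 14.2 (7.74 to 23.7) in the female liver. The interval of the female liver included values of the other libraries at each of these 5 regions.

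Which organ was highest depended on the scaling. By CPM, uterus was the highest library in 7145 regions (38.9%) and male liver the lowest in 6800 (37.0%). When scaled to the regions with a peak in all 7 lists, uterus was highest in 2555 (13.9%) and colon led with 3435 (18.7%), while male liver was lowest in 4238 (23.1%). Per 1000 bp of peak, uterus was highest in 16201 regions (88.2%). Its peaks were also the narrowest of the 7 lists in 10046 regions (54.7%), and those of colon the widest in 6734 (36.7%). Peak width is a property of the calls made in each library, so no organ is called the most accessible from these counts.

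A minority of the regions nevertheless had a far higher summed level in 1 organ, or in a few, than in most others. A level at least 4-fold above the median of the other 6 libraries was found in 1978 regions (10.8%). A region high in 2 or 3 organs can pass for each of them, so the counts by organ sum to 2664. By organ there were 144 in colon, 174 in spleen, 211 in male liver, 284 in lung, 287 in kidney, 700 in heart and 864 in uterus. Over all 20204 regions with a peak in all 7 lists, the percentages past this fold were 0.911 in colon, 1.13 in spleen, 1.95 in male liver, 1.61 in lung, 1.83 in kidney, 3.7 in heart and 4.61 in uterus. The narrow regions had 0.784% in colon, 0.948% in spleen, 1.15% in male liver, 1.55% in lung, 1.56% in kidney, 3.81% in heart and 4.71% in uterus. As the narrow regions made up most of the regions in that background, the wide shared regions are also given alone, with 2.17% in colon, 2.93% in spleen, 9.87% in male liver, 2.28% in lung, 4.45% in kidney, 2.55% in heart and 3.63% in uterus. The percentage was thus lower in the narrow than in the wide regions in 5 organs and higher in heart and uterus. Wide regions were chosen for a long peak in some library, and the level sums counts over the length of the peaks. The contrast between narrow and wide regions is therefore partly set by the rule. These differences were not tested.

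The counts of uneven regions depended on peak length and on the scaling. Among the 16754 regions with at least 200 bp of peak in each list they were 88 in colon, 104 in spleen, 135 in male liver, 177 in lung, 199 in kidney, 502 in heart and 699 in uterus. Per 1000 bp of peak they were 0 in colon, 4 in spleen, 2 in male liver, 9 in lung, 12 in kidney and 35 in heart, but 499 in uterus. With scaling to the shared regions the counts were 180 in colon, 183 in spleen, 390 in male liver, 224 in lung, 460 in kidney, 584 in heart and 429 in uterus, so heart replaced uterus as the organ with the most such regions.

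The region with the largest fold was different in each organ and was often covered widely only there. In uterus it was chr6:93499298-93501760, with 72.9 CPM in uterus and 0.478 to 1.69 in the other 6 libraries. The peak was 2463 bp long in uterus and 110 to 393 bp in those 6. The female liver had 5.05 CPM (1.64 to 11.8) from 1176 bp of peak. In heart it was chr8:17714583-17718172, with 50.1 CPM in heart, 5.72 in spleen and 0.397 to 2.15 in the other 5 libraries. A heart peak of 3590 bp covered the region, against at most 566 bp of peak in any other of the 7 lists. Kidney had chr16:19325108-19330046, with 73.0 CPM against 1.35 to 5.44 elsewhere. The lung region chr11:51046936-51051268 had 51.5 CPM in lung, 19.1 in spleen and 12.4 in heart, and 0.634 to 3.01 in the remaining 4 libraries. For these 4 regions the word open rests, in most organs, on a short peak with a low level. The highest-to-lowest ratios in CPM were 153 for the uterus region, 126 for heart, 54.3 for kidney and 81.3 for lung. Per 1000 bp of peak they were 15.0, 6.26, 5.87 and 5.69, so much of the contrast went with peak length.

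In the other 3 organs the leading region was shared with a second organ. The male liver region chr9:44949874-44954345 had 121 CPM in male liver and 106 in kidney, but 1.36 to 8.08 in the other 5 libraries. The female liver had 19.2 CPM there (11.6 to 30.0), below male liver and above those 5. The spleen region chr14:30405958-30411164 had 106 CPM in spleen, 65.7 in colon and 35.7 in lung, and 0.220 to 6.65 in heart, kidney, male liver and uterus. The female liver had 64.7 CPM (49.8 to 82.6), close to colon. The colon region chr4:134704678-134705896 had 44.9 CPM in colon and 46.2 in spleen, 16.0 in lung and 25.3 (16.4 to 37.3) in the female liver, and 1.15 to 4.34 in the rest. The highest-to-lowest ratios in CPM were 88.7 for the male liver region, 482 for spleen and 40.3 for colon. Per 1000 bp of peak they were 8.81, 9.83 and 15.6.

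The female liver, which had no part in the choice, was also read at these uneven regions. For each organ the 100 regions with at least 500 counts there and the largest fold over the median of the other 6 libraries were taken, and the female liver level was divided by the same median. The median of this quotient was 3.97 for the colon regions and 3.86 for the spleen regions, and the female liver was above the median of the other libraries in 91 and 96 of 100. These lists are not separate, as 53 of the 100 regions were in both. For the male liver regions it was 1.95, with 91 of 100 above. It was 1.06 for lung, 0.889 for heart, 0.796 for kidney and 0.593 for uterus, with 51, 49, 39 and 29 of 100 above. The female liver had a median of 58 counts per region in the colon and spleen lists and 23 in the male liver list, but only 8 in the lung and kidney lists, 6 in that of heart and 4 in that of uterus. Over all 18360 regions the corresponding median was 0.864 to 0.933, depending on the library left out, and the female liver was above the median of the other 6 in 36.1% to 43.2%. The lists were chosen for being high in 1 organ and low in most others, so these values are a description, and differences between lists were not tested.

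Over the levels of all 18360 regions the female liver was again nearest to colon and spleen, while the order of the other libraries differed from that of the uneven regions. Spearman's rho between libraries, given as a description across regions that share libraries and peak calls, was highest for colon and spleen (0.906) and lowest for kidney with the female liver (0.681) and with spleen (0.682). It was 0.850 for heart and lung and 0.808 for kidney and male liver. The female liver had 0.897 with colon, 0.888 with spleen, 0.818 with lung, 0.764 with male liver, 0.737 with heart, 0.699 with uterus and 0.681 with kidney. Its order of likeness was the same over the 16538 regions with at least 200 bp of peak in each of 8 lists and over the 17895 regions outside the X chromosome. Per 1000 bp of peak, colon stayed nearest (0.849) and male liver took place 6 of 7 (0.664). The library labelled female liver therefore stood nearer to colon and spleen than to male liver, and without an annotation in the coordinates of the peaks its tissue could not be checked against liver genes.

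**Figure D3:**
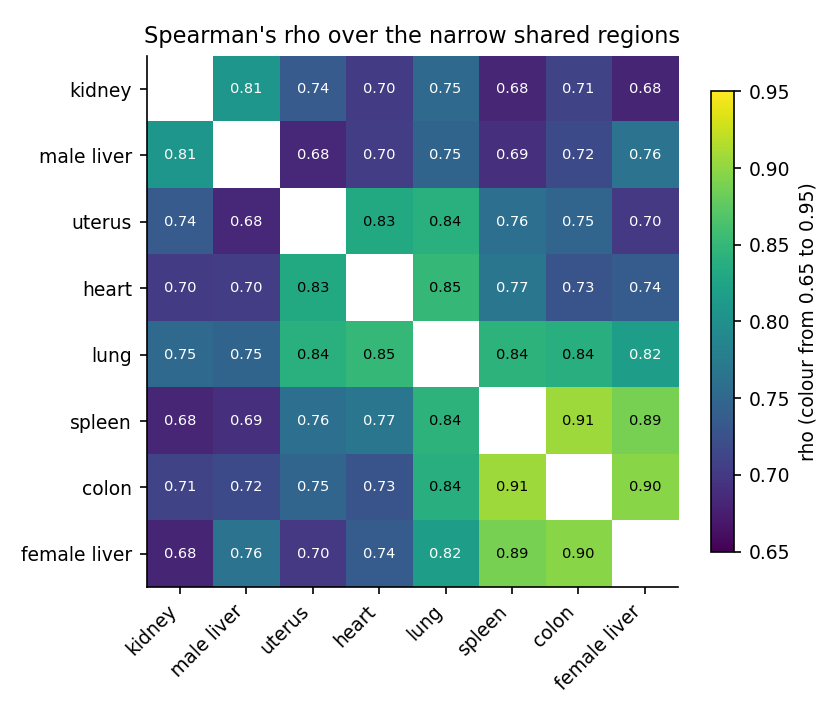
Spearman's rho between the levels of the 18360 narrow shared regions in each pair of 8 libraries, with the colour scale running from 0.65 to 0.95. Colon and spleen (0.906) and both with the female liver (0.897 and 0.888) formed the brightest block, and the male liver stood nearest to kidney (0.808).

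Nearly all of the regions overlapped a peak in the female liver list by at least 1 bp. This list was the longest, with 165942 peaks. It shares its organ with male liver and its animal with other lists used for the choice, so it is not an independent check. A female liver peak overlapped 18142 regions, or 98.8% (exact binomial interval 98.65 to 98.96). The share was 17.8% among regions with a peak in 1 of the 7 lists, 47.4% with 2, 65.2% with 3, 77.8% with 4, 86.0% with 5 and 93.3% (92.7 to 93.8) with 6. It was 99.9% among wide shared regions. Longer regions are hit more easily, so the shares were also compared at like width. Between 500 and 1000 bp they were 96.5% (95.8 to 97.2) for the narrow shared regions, 92.1% (91.2 to 93.0) for regions in 6 lists and 84.0% for regions in 5, and between 1000 and 1500 bp 98.4%, 92.9% and 87.2%. The share thus increased with the number of organs, and within these width classes from 5 lists to 7. Regions in fewer lists were not compared at like width. When only female liver peaks that covered at least 50% of the region were counted, the share of narrow shared regions was 77.5%.

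The 218 regions without a female liver peak were at the low end. Their median level in the 7 libraries was 4.03 CPM, against 19.4 in those with a peak, and their median width 930.5 against 1880 bp. Of the 5 groups by level, the lowest had a female liver peak in 95.02% of its regions, and the highest in all 3672.

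**Figure D4:**
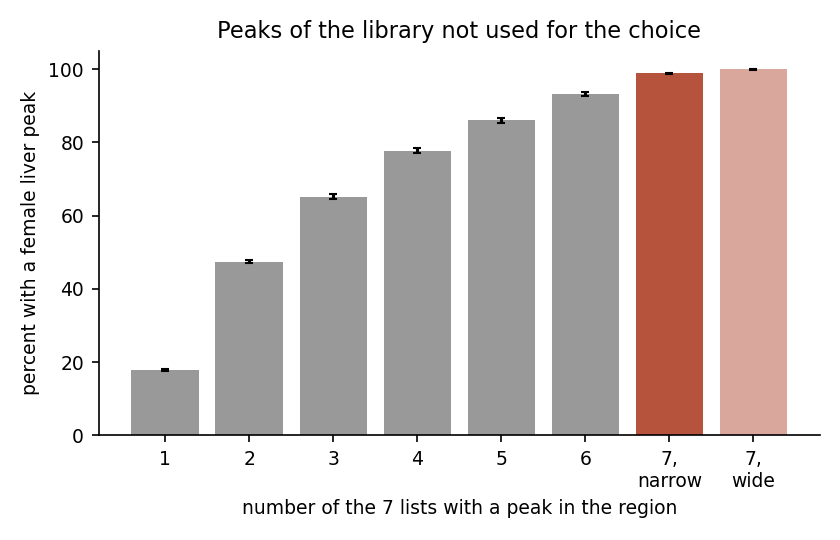
Percent of merged regions that overlapped a peak of the female liver library (vertical axis) by the number of the 7 other lists with a peak in the region (horizontal axis), with regions in all 7 divided into narrow and wide. Error bars are exact binomial intervals at 95%. The share went from 17.8% with 1 list to 98.8% for the narrow shared regions.

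How evenly the signal was spread over cells was measured within each library. For each region the number of cells with a fragment was divided by the number expected if its fragments fell on cells in proportion to their depth, so that 1 means an even spread and lower values mean concentration in fewer cells. Fragments were taken as counts divided by 2, rounded up. Among regions with an expected share of 5% to 20% of cells the median quotient was 0.941 in uterus, 0.9502 in colon, 0.9498 in lung, 0.952 in heart, 0.971 in male liver, 0.973 in kidney and 0.983 in spleen. Each male library stood above each female one, the same split by animal as in the share of even counts. Organ, animal and the rounding to fragments cannot be told apart in these values. Regions with a peak in 6 lists had 0.918 in uterus, 0.916 in colon, 0.918 in lung, 0.926 in heart, 0.961 in male liver, 0.965 in kidney and 0.978 in spleen. The narrow shared regions were above the regions in 6 lists in 7 of 7 libraries, and above the wide shared regions in 7 of 7. In the female liver the values were 0.967 and 0.937.

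This order held only where the signal was strong. Among regions with an expected share of 1% to 5% of cells, the narrow shared regions were above those in 6 lists in 2 of 7 libraries, spleen (0.986 against 0.983) and uterus (0.981 against 0.974), and below them in the other 5, for example in colon (0.955 against 0.961). With counts in place of fragments they were above in 5 of 7. Even at 5% to 20% the interquartile ranges overlapped in each library, and the median expected share was higher in the narrow shared regions (11.4% against 7.99% in colon). Between 5% and 10% they were above in 7 of 7. Cells are not replicates, and no test was made.

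**Figure D5:**
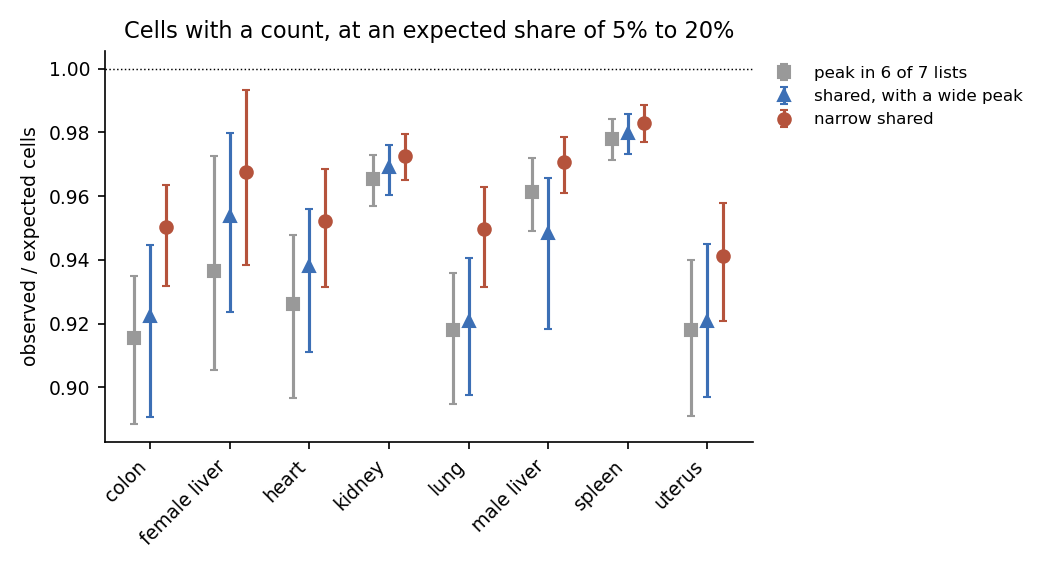
Observed number of cells with a fragment divided by the number expected from cell depth (vertical axis, not starting at 0) in each library, for regions with an expected share of 5% to 20% of cells. Points are medians and bars quartiles; grey, peak in 6 of 7 lists; blue, wide shared; red, narrow shared. The red medians lay between 0.941 and 0.983, above grey and blue in each library, with overlapping bars.

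The regions were spread over all chromosomes but not evenly. Chromosome 1 held the most (1930). Their density, taken over the length up to the last peak, ran from 3.11 per Mb on the X chromosome and 3.20 on chromosome 5 to 14.4 on chromosome 16 and 21.0 on chromosome 19. On chromosome 19 they made up 18.7% of all merged regions, against 4.97% on chromosome 5. On the X chromosome, where merged regions of any kind were sparse (38.1 per Mb), the members made up 8.17% of them, above the 7.48% over all chromosomes. The gap between neighbours was 43170 bp at the median, and 18.6% of the gaps were under 10 kb.

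The densest stretch of 50000 bp held 8 regions, at chr10:36528804-36577479. By CPM, which favours uterus more than scaling to the shared regions does, uterus was the highest of the 7 libraries at 7 of them. At chr10:36555960-36557138 it had 68.0 CPM, against 14.8 in heart, 8.84 in lung, 3.30 in colon, 2.40 in spleen, 1.98 in kidney and 1.67 in male liver. At chr10:36537060-36537952 it had 69.2 CPM, with 42.3 in lung, 33.5 in colon and 31.6 in heart, but 2.54 to 5.85 in kidney, male liver and spleen. A more even member lay among them, chr10:36572706-36573827, with 23.5 CPM in colon to 50.7 in uterus. The last, chr10:36576990-36577479, was highest in spleen (13.2 CPM) and lowest in colon (3.94). Most of the 8 regions had a common pattern by CPM, with uterus highest and kidney, male liver and spleen lowest. Others, such as the last, differed from it.

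Because each library came from a female or a male, the regions on the X chromosome were compared between libraries of both animals. There were 465 such regions. They held 2.31% of the counts in narrow shared regions in colon, 1.87% in heart, 2.06% in lung and 1.75% in uterus, and 1.88% in kidney, 1.97% in male liver and 2.20% in spleen. The female libraries averaged 1.999% ± 0.244 (SD, n = 4) and the male ones 2.02% ± 0.161 (SD, n = 3), and the values overlapped. The difference, female minus male, was -0.0185 percentage points (two-sided exact permutation test over 35 splits, p = 0.914, the smallest possible being 0.0571). With the female liver (2.15%) added, the difference was 0.0123 percentage points with the opposite sign (exact permutation test over 56 splits, p = 0.964, the smallest possible being 0.0357). The test with 7 libraries could not reach 0.05. Each sex was 1 animal, so both tests compare libraries.

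Region by region, 24 of the 465 X-linked members (5.16%) were higher in each of the 4 female libraries than in each of the 3 male ones, and 15 (3.23%) the reverse. Over all regions with a peak in all 7 lists the percentages were 4.89 and 3.45. The members outside the X chromosome had 5.19% and 3.36%, so the X chromosome was near the background in both directions. The member on X with the most counts, chrX:46069829-46073680, had 118 CPM in colon and lung, 106 in heart, 146 in uterus and 114 in spleen, but 54.0 in kidney and 48.2 in male liver. Spleen, from the male, lay among the female libraries there. At chrX:39828681-39832176 the level was 53.9 CPM in male liver, 67.2 in kidney, 85.7 in lung, 97.9 in heart, 100.7 in colon, 113 in spleen and 136 in uterus.

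Members were also looked up in the stretches that the study shows around EGFL7 and JCHAIN, on the assumption that those positions and the deposited peaks share coordinates. EGFL7 encodes a factor secreted by endothelial cells, and JCHAIN the chain that joins immunoglobulin units in plasma cells. In the EGFL7 stretch, chr15:1819018-1823375 was highest in heart (75.2 CPM) and lung (66.0), followed by spleen (41.0), uterus (37.0), male liver (16.6), kidney (12.2) and colon (7.10). Its neighbour chr15:1777272-1781495 was more even, from 14.6 CPM in kidney to 45.03 in lung. The first had a ratio between organs of 10.6 in CPM and 3.92 per 1000 bp of peak, its neighbour 3.08 and 2.84. At the first, the peaks covered 4332 bp in heart, 4348 bp in lung and 1793 bp in uterus. Its order by CPM therefore does not hold per length. The JCHAIN stretch held chr5:63574358-63577617, with 42.6 CPM in lung to 68.7 in kidney, and chr5:63593717-63595654, with 41.2 in male liver to 63.7 in uterus. In CPM these regions had ratios of 1.61 and 1.55 between organs, and per 1000 bp of peak 1.39 and 2.23. Whether a member belongs to either gene was not tested.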

How the data were processed

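Counts of Tn5 cut ends per peak and barcode were used as deposited. Per the labels and the study's methods, the authors ran Cell Ranger ATAC 1.2.0 on each library and called peaks per library; the counts were not normalized, and a genome build is named for the study's scRNA-seq only, that of the scATAC-seq not being given in the sources used here. The authors' later filters are not in these files. The 8 files held 81475 barcodes, and the 78917 with at least 1000 counts were kept. The study's own cell count after its filters was lower. Its methods also state a forced number of cells for liver, lung, colon and spleen. The kept barcodes exceeded that number in male liver (11935), colon (12404), lung (13117) and spleen (20019). Shares of cells here therefore rest on more barcodes than that setting gives. Doublets were not removed; an alternative left out the 5% of barcodes with the most counts.

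A library's level in a region is the sum of counts in its own peaks there, per 1000000 counts in all its peaks, so length of peak enters each value. Named regions were those with the highest lowest library, the most even, the most tilted to each organ, those at the width limit, the densest stretch and the top X-linked members. The members and lists were chosen with earlier results of these data known. Intervals at 95% are exact binomial for shares and exact Poisson on counts divided by 2. For shares of counts, the binomial interval took the counts undivided. The scripts were tested on simulated data and used Python 3.11.15, numpy 2.4.6, scipy 1.17.1, pandas 2.3.3 and matplotlib 3.10.9.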

Additional observations from a re-analysis of the deposited data

How the results depend on the processing

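Of 41 comparisons with an alternative setting, 31 stayed within the limits set (1.5 times for counts of regions, 1.1 times for the ratio between organs, 1 SD over libraries or the interval for other values, the threshold for the test) and 10 moved beyond them. The 31 include all 10 comparisons of the X chromosome. Those with 7 libraries or fewer could not cross the threshold, and a change of sign alone was not counted as a move. These comparisons therefore say nothing about stability. The number of regions was 11528 when peaks were required to have a count in 1% or more of the cells, and 15005 to 19099 under the other alternatives. Scaled to the shared regions, the median level over the 7 libraries was 31.0 per 1000000 counts there, and the ratio between organs 2.95. With equal medians this ratio was 2.91, and it lay between 2.82 and 3.18 when each library was left out, lowest without uterus. Leaving a library out can only lower a highest-to-lowest ratio or keep it, so the direction of these changes was fixed. The quotient of observed to expected cells had a median over libraries of 0.517 with counts in place of fragments, which by construction lowers it, and 0.973 at an expected share of 1% to 5%, where the order against regions in 6 lists turned in 5 of the 7 libraries; the cause of the latter was not tested. The share with a female liver peak was 77.5% with coverage of at least 50%, and 98.0% with peaks that had a count in any barcode. In the kept cells of the female liver, 97.0% of the regions had a count. The alternatives with at least 200 bp of peak in each list, per 1000 bp of peak, and at 5% to 10% of cells were chosen after seeing the data. The difference on the X chromosome, female minus male, lay between -0.122 and 0.0706 percentage points when each library was left out, so its sign was not stable, and p was between 0.4 and 1.0 in all alternatives, none of which could reach 0.05 with 7 libraries or fewer. Start sites and motifs were not analysed here, for want of a genome in the coordinates of the peaks. No paired analysis was possible because each organ other than liver had 1 library and the replicate numbers do not pair samples. Depth limits the female liver most, with a median of 35 counts per region.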
